A study of Mus musculus with 8 samples.

Results

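The genes described here are those whose expression was compared between 2 populations sorted from the same kind of tissue, the colon inflamed by dextran sodium sulphate, a compound that injures the colonic epithelium. CX3CR1int Ly6Chi cells, which the labels set apart by intermediate CX3CR1 and high Ly6C, were compared with CX3CR1hi F4/80hi macrophages. Genes were included if their signal reached the median probe set of the array in which it was brighter, as it did for 10308 of 19938 genes. Of these, 9398 were bright in both arrays, 284 in the Ly6Chi array only and 626 in the macrophage array only, and those bright in 1 array could pass only through the array in which they were high. The series measured gene expression on Affymetrix arrays in 8 groups of sorted mononuclear phagocytes with 1 array each. All mice were C57BL/6 and Cx3cr1gfp/+, so that a green fluorescent protein stood in for 1 copy of the fractalkine receptor gene Cx3cr1 in every group, controls included. Cells taken at day 4 of colitis were colonic CX3CR1int Ly6Chi, CX3CR1int Ly6Clo and CX3CR1hi F4/80hi cells and splenic Ly6Chi monocytes, all labelled male. Cells taken at steady state were CX3CR1hi F4/80hi cells of the colon, labelled male, and 3 populations labelled female, namely resident CX3CR1hi macrophages, monocyte-reconstituted ones, and Ly6Chi monocytes of the spleen. The labels give no age and do not say how many mice were pooled for an array.

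Ly6Chi monocytes leave the bone marrow, use the chemokine receptor CCR2 to enter tissue from the blood, and in a healthy colon mature into macrophages rich in CX3CR1 and MHC class II. Mature colonic macrophages take up bacteria and dying cells, make interleukin 10 and respond weakly to bacterial products. When the epithelium is breached, monocytes that arrive in larger numbers can instead make inflammatory cytokines such as interleukin 6 and interleukin 23. The comparison addressed how these newly arrived cells differed from the macrophages already in the same inflamed tissue.

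Ly6Chi cells and macrophages of the inflamed colon differed in many genes. At least 2-fold higher in Ly6Chi cells were 549 genes, 5.33% of those included, and 935 genes, 9.07%, were at least 2-fold lower. These 2 shares are the background for the counts of every gene list below. At 4-fold the numbers were 164 (1.59%) and 188 (1.82%). Probe sets without a single gene symbol, left out here, leaned the other way. Of 6357 that the platform annotation does not list and that were bright enough, 393 were at least 2-fold higher and 162 lower. Of 860 that match several symbols, 26 were higher and 10 lower. The excess of lower genes thus holds for genes named by 1 symbol. Values are log2 expression, a difference is the Ly6Chi array minus the macrophage array, and a difference of 1 or more in size counts as 2-fold. With 1 array a group there is no replicate and no test, and "higher" and "lower" describe these arrays. The median difference over all included genes was -0.05, and the standard deviation of the differences over genes was 0.83. For scale, the macrophage array of colitis and the steady-state array of the same label, also male, had an SD over genes of 0.32 and 151 of 10269 genes 2-fold apart (1.47%), and the steady-state F4/80hi and resident arrays had an SD of 0.40 and 378 of 10384 (3.64%). Those pairs differ in condition or in sex and origin, so they are not repeats. Ly6Clo cells, set against the same macrophage array, had 756 genes higher (7.27%) and 1227 lower (11.8%), and in either direction 1983 of 10396 (19.1%), against 1484 (14.4%) for Ly6Chi cells. Colonic Ly6Chi cells were about as far from splenic Ly6Chi monocytes of colitis, with 1385 of 10083 genes 2-fold apart and an SD of 0.86. Against Ly6Clo cells they had 1213 of 10132 genes 2-fold apart and an SD of 0.74. The colonic arrays also held RNA of other colonic cells. The median level of epithelial markers was 9.85 in colonic Ly6Chi cells and 5.49 in splenic monocytes of colitis. What part such RNA had in the distance from the spleen was not tested. Because whole populations were measured, fewer cells of a kind and less RNA per cell cannot be told apart in any value below.

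**Figure D1:**
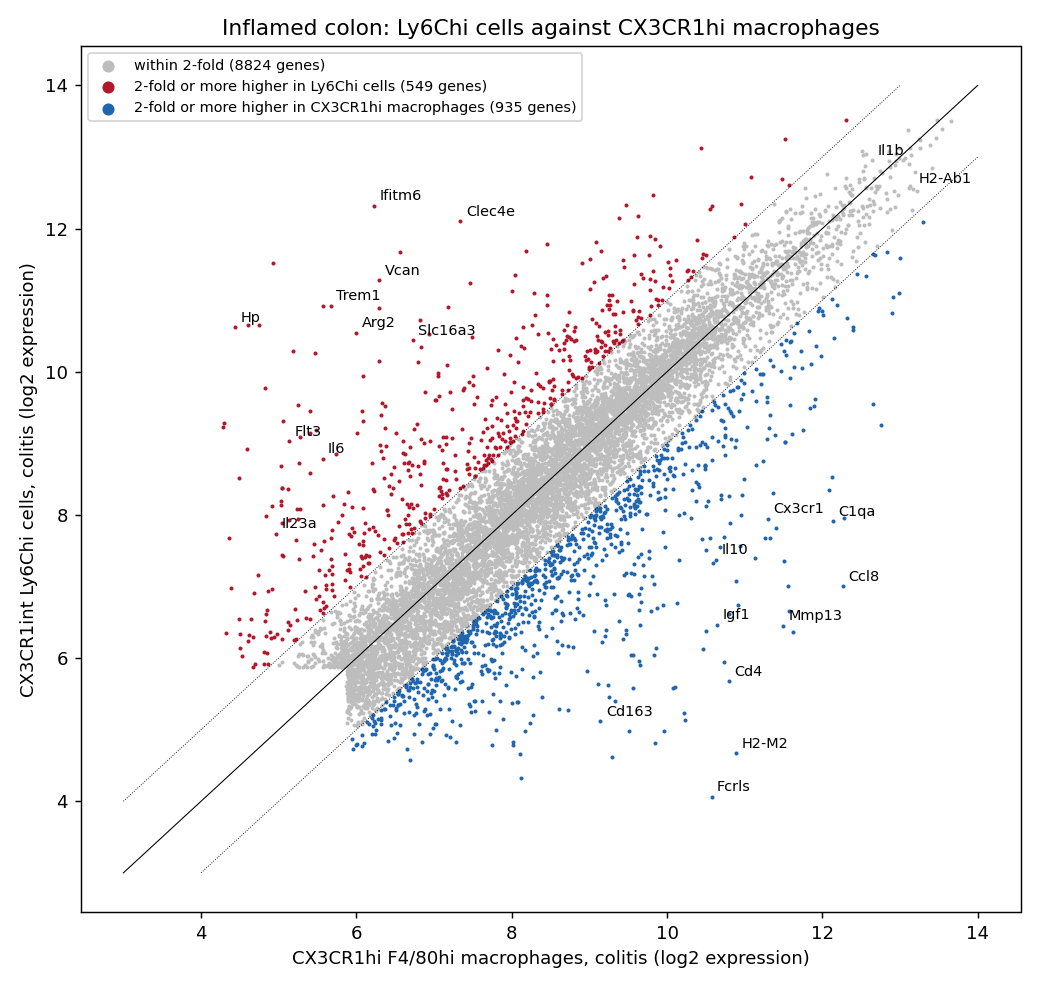
Log2 expression of the 10308 included genes in CX3CR1hi F4/80hi macrophages (horizontal axis) and CX3CR1int Ly6Chi cells (vertical axis) of the inflamed colon, 1 point a gene and 1 array an axis. The solid line marks equal values and the dotted lines a 2-fold difference; 549 genes lie above the upper dotted line and 935 below the lower line, while Il1b and H2-Ab1 lie near equality.

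The sort was visible in the RNA. Cx3cr1 stood at 7.95 in Ly6Chi cells and 11.29 in the macrophages of colitis, 7.51 in Ly6Clo cells, 9.95 and 10.76 in splenic monocytes of colitis and steady state, and between 10.88 and 11.34 in the steady-state CX3CR1hi arrays. It was thus lower in both colonic CX3CR1int arrays than in all 4 CX3CR1hi arrays and in both splenic arrays. Adgre1, which encodes the antigen of the F4/80hi gate, stood at 10.75 against 12.32, and Mertk, a receptor for dying cells and a standard marker of tissue macrophages, at 8.26 against 10.79. Ly6c2 could not be read alone, since its 2 probe sets also match Ly6c1. Those probe sets were 1.86 and 2.10 higher in Ly6Chi cells. Csf1r, the growth factor receptor of the lineage, differed by -0.37, and Fcgr1, which encodes CD64, by 0.09, so that neither was 2-fold apart.

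Genes that identify classical monocytes were higher in Ly6Chi cells. Of 29 such genes included, 20 were at least 2-fold higher and 0 lower, with a median difference of 1.74 against -0.05 over all included genes. Like the other lists, this one was written with earlier results of these data known. Its count therefore describes the list and is no independent support for the identity of the cells. The farthest apart was Hp, which encodes haptoglobin, a plasma protein that binds free haemoglobin. It stood at 10.62 in Ly6Chi cells and 4.44 in the macrophages of colitis, 4.78 in Ly6Clo cells, 11.18 and 10.99 in splenic monocytes of colitis and steady state, and between 4.18 and 4.53 in the steady-state CX3CR1hi arrays. The Ly6Chi value was close to that of splenic monocytes, whereas Ly6Clo cells shared the low value of all macrophages. Ifitm6, an interferon-induced membrane protein of myeloid cells, stood at 12.32 against 6.23, and here Ly6Clo cells, at 11.50, were on the high side. Chil3, a chitinase-like protein that marks Ly6Chi monocytes, stood at 9.28 against 4.29, with splenic monocytes higher still at 11.35 in colitis and 11.61 at steady state. Vcan, a matrix proteoglycan made by monocytes, stood at 11.28 in Ly6Chi cells and 6.30 in the macrophages of colitis, 5.64 in Ly6Clo cells, 10.76 and 10.46 in splenic monocytes of colitis and steady state, and between 5.08 and 5.63 in the steady-state CX3CR1hi arrays. S100a4, a calcium-binding protein, stood at 10.26, 10.37 and 5.46 in Ly6Chi, Ly6Clo and CX3CR1hi cells. The homing receptor gene Ccr2 was high in all 3 colitis populations of the colon, at 12.32, 11.09 and 10.57 in the same order, and the Ly6Chi value exceeded that of macrophages by 1.74. Plac8 (2.85), Ms4a4c (2.65), Fn1, which encodes fibronectin (2.55), and the membrane protein gene Mcemp1 (5.10) were also higher. Lyz2, which encodes the lysozyme of all myeloid cells, was equal in both arrays at 13.12 and 13.12.

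Macrophage identity genes showed the opposite. Of 26 included, 19 were at least 2-fold lower in Ly6Chi cells and 0 higher (median -2.24). The 19 include Cx3cr1 and Adgre1, genes of the sort gates, so the sort itself set part of this count. This list too was written with earlier results of these data known. Hpgds, the prostaglandin D2 synthase of haematopoietic cells, stood at 6.36 in Ly6Chi cells and 11.63 in the macrophages of colitis, 8.18 in Ly6Clo cells, 6.10 and 5.07 in splenic monocytes of colitis and steady state, and between 11.22 and 11.57 in the steady-state CX3CR1hi arrays. The 4 CX3CR1hi arrays were the high ones, and Ly6Clo cells came next. Cd4, a T cell coreceptor that mouse gut macrophages also express, stood at 5.68 against 10.80 and was between 10.16 and 10.47 in the steady-state CX3CR1hi arrays. Genes best known from microglia, the macrophages of the brain, were among them, with Olfml3 at -4.18, the receptor gene Gpr34 at -3.31, Tmem119 at -2.90 and the purinergic receptor genes P2ry13 at -2.48 and P2ry12 at -2.19. The tetraspanin genes Cd81 (-3.10) and Cd63 (-2.35), the transcription factor gene Maf (-2.69) and the TGF-beta receptor gene Tgfbr1 (-2.37) were lower as well. Itgax, which encodes the integrin CD11c, stood at 10.01 against 11.46, but at 11.90 in Ly6Clo cells, which put that population above the macrophages.

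The largest differences outside these lists were of several kinds. Higher in Ly6Chi cells were Ly6a2, a member of the Ly6 surface protein family (11.51 against 4.92), Chil1, a chitinase-like glycoprotein (10.65 against 4.60), and Serpinb10, a protease inhibitor of bone marrow cells (10.65 against 4.74). Chil1 stood at 11.57 in splenic monocytes of colitis and 8.05 in those of steady state, and between 4.50 and 4.77 in the other 5 colonic arrays. Tarm1, an activating receptor of myeloid cells, stood at 11.68 against 6.56, above both splenic arrays (9.88 and 9.42). Cd7, an immunoglobulin superfamily receptor better known from lymphocytes, stood at 9.77 in Ly6Chi cells and 4.82 in the macrophages of colitis, 10.56 in Ly6Clo cells, 6.47 and 6.31 in splenic monocytes of colitis and steady state, and between 4.72 and 4.93 in the steady-state CX3CR1hi arrays. It was therefore high in the colonic CX3CR1int arrays of colitis and in no other. Mmp8, the collagenase of neutrophils and monocytes (4.94), Arhgef37 (4.32), the phospholipase gene Plcb1 (4.28) and the Rab GTPase gene Rab44 (4.25) completed the upper end.

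At the lower end stood Fcrls, a receptor-like gene of the Fc receptor family that is a marker of microglia and some tissue macrophages, at 4.06 against 10.57. H2-M2, a nonclassical MHC class I gene, followed at 4.67 in Ly6Chi cells and 10.89 in the macrophages of colitis, 6.91 in Ly6Clo cells, 5.51 and 5.08 in splenic monocytes of colitis and steady state, and between 10.88 and 10.97 in the steady-state CX3CR1hi arrays. Tanc2, a scaffold protein (-5.10), Kcnj10, an inwardly rectifying potassium channel (-5.04), Vcam1, an adhesion molecule (-4.90), and Npl, which breaks down sialic acid (-4.80), were high in all 4 CX3CR1hi arrays and low in the rest. Lilra5, an activating receptor (-4.51), the anion transporter gene Slco2b1 (-4.50), Ms4a7 (-4.33) and the glycosyltransferase gene Gbgt1 (-4.33) were also among the 20 lowest. Apol7c, an apolipoprotein L gene, was an exception to the shared pattern, since it stood at 6.62 in Ly6Chi cells, 11.39 in Ly6Clo cells and 10.80 in macrophages of colitis.

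**Figure D2:**
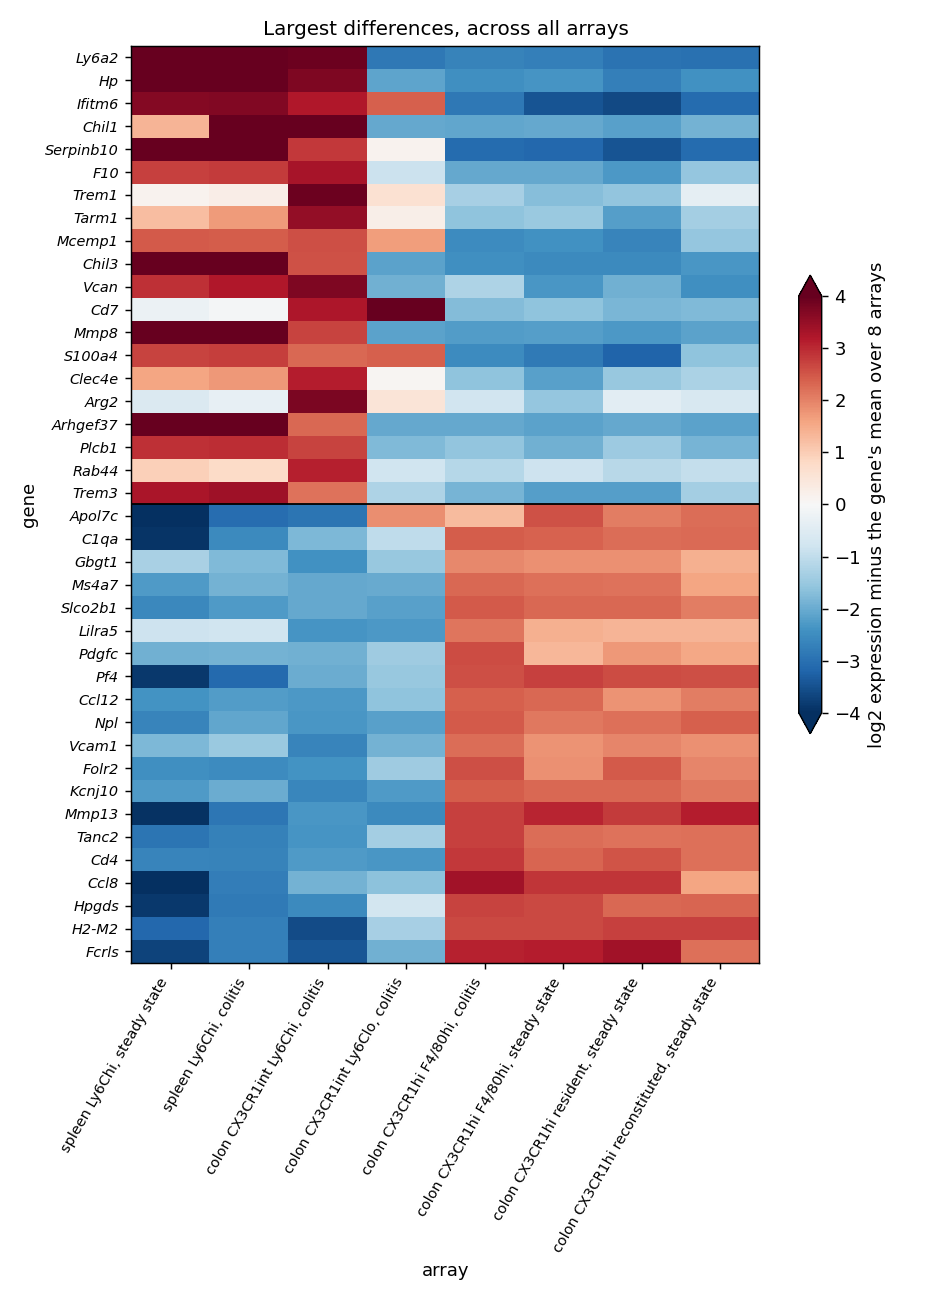
Log2 expression minus the gene's own mean over the 8 arrays, for the 20 genes highest (top) and the 20 lowest (bottom) in Ly6Chi cells relative to CX3CR1hi F4/80hi macrophages of the inflamed colon; columns are arrays, and colours end at a difference of 4. Genes in the lower block are high in all 4 CX3CR1hi arrays, whereas those in the upper block vary between splenic monocytes and colonic Ly6Chi cells, with Trem1, Arg2 and Cd7 lower in splenic monocytes than in colonic Ly6Chi cells.

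Among inflammatory cytokines and mediators, 12 of 21 included genes were at least 2-fold higher in Ly6Chi cells and 1 was lower (median 1.56). The other 9 of the 30 measured genes were too dim in both arrays, and over all 30 the median was 0.66. Il6 stood at 8.78 in Ly6Chi cells and 5.57 in the macrophages of colitis, 7.80 in Ly6Clo cells, 4.80 and 4.58 in splenic monocytes of colitis and steady state, and between 4.92 and 5.19 in the steady-state CX3CR1hi arrays. It was high in both CX3CR1int arrays of colitis and at most 5.57 elsewhere. Il23a, the p19 subunit that makes interleukin 23 together with the product of Il12b, stood at 7.74 against 4.97, with 6.07 in Ly6Clo cells, 4.94 and 5.02 in splenic monocytes of colitis and steady state, and between 5.27 and 5.61 in the steady-state CX3CR1hi arrays. Il12b itself differed by -0.86 (5.23 against 6.09). The alarm cytokine gene Il1b was high in both arrays, at 12.95 and 12.64, and Il1a differed by 0.19. Tnf was the gene that was lower, at 8.91 against 10.14. The members that were higher did not all encode cytokines. Arg1 and Arg2 encode arginases, which consume arginine, and stood at 7.68 against 4.36 and 10.55 against 6.00. Arg1 was between 4.36 and 4.72 in the other 7 arrays, so the Ly6Chi array was the only high one. Nos2, which encodes the inducible nitric oxide synthase that competes for arginine, was too dim for inclusion at 5.80 against 4.93. Hdc, the enzyme that makes histamine (3.75), the acute-phase protein gene Saa3 (3.08), the hyaluronan-binding protein gene Tnfaip6 (2.44), Acod1, which makes itaconate (2.24), Lcn2, which encodes the iron-withholding lipocalin 2 (2.18), and the cyclooxygenase gene Ptgs2 (1.21) were higher too.

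Chemokines were divided. CC chemokine genes had 2 of 12 at least 2-fold higher in Ly6Chi cells and 5 lower (median -0.50), against 5.33% and 9.07% of all included genes. The lower ones were led by genes of a single cluster, most of which attract monocytes. Ccl8 stood at 7.01 in Ly6Chi cells and 12.27 in the macrophages of colitis, 7.27 in Ly6Clo cells, 6.14 and 4.55 in splenic monocytes of colitis and steady state, and between 10.50 and 11.78 in the steady-state CX3CR1hi arrays. Ccl12 (-4.67), Ccl7 (-3.59) and Ccl2 (-1.81) were lower with it. These latter 3 encode ligands of CCR2, so the array with more Ccr2 RNA had less RNA for them. Ccl4 was lower by a smaller amount (-1.16), whereas Ccl3 was within 2-fold (12.52 against 13.22). Higher in Ly6Chi cells were Ccl9 (1.17) and Ccl17, a ligand of CCR4 (1.11). Among CXC chemokine genes 2 of 12 were higher and 5 lower (median -0.82), against the same shares of all included genes. Pf4, the platelet factor 4 gene, stood at 7.01 against 11.56, Cxcl13, which attracts B cells, at 7.51 against 10.50, and Cxcl16, which is also a scavenger receptor, at 10.62 against 12.40. The neutrophil attractant genes did not move together, with Cxcl3 higher (2.13), Cxcl1 lower (-1.03) and Cxcl2 within 2-fold (-0.80). Among interferon-induced ligands of CXCR3, Cxcl11 was higher (1.26) while Cxcl10 (0.35) and Cxcl9 (-0.85) were within 2-fold.

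Receptors for chemokines and other attractants were as divided, with 4 of 13 higher and 4 lower (median -0.09, or 0.12 over all 18 measured). Besides Ccr2, the higher ones were Ccr7, which guides cells into lymphatic vessels, at 9.21 in Ly6Chi cells and 6.36 in the macrophages of colitis, 11.66 in Ly6Clo cells, 6.69 and 6.25 in splenic monocytes of colitis and steady state, and between 6.33 and 6.52 in the steady-state CX3CR1hi arrays, the leukotriene B4 receptor gene Ltb4r1 (1.96), and Ccr3 (1.39). Ly6Clo cells thus had the highest Ccr7 of all arrays. The lower ones besides Cx3cr1 were the complement anaphylatoxin receptor genes C3ar1 (-1.89) and C5ar1 (-1.15) and Cxcr3 (-1.41).

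Pattern recognition receptors, which detect microbial and damage signals, had 6 of 27 higher and 2 lower (median 0.26). Over all included genes the shares were 5.33% and 9.07%, so the count of lower receptors was near that background. The higher ones were not Toll-like receptors. Trem1, which amplifies Toll-like receptor signals in monocytes and neutrophils, stood at 10.92 in Ly6Chi cells and 5.67 in the macrophages of colitis, 7.59 in Ly6Clo cells, 7.26 and 7.14 in splenic monocytes of colitis and steady state, and between 5.28 and 6.64 in the steady-state CX3CR1hi arrays. The Ly6Chi array stood well above each of the others. Clec4e, the Mincle receptor for mycobacterial and fungal glycolipids, stood at 12.10 against 7.34, and its partner Clec4d at 9.81 against 7.51. In Ly6Clo cells Clec4e was at 9.02 and Clec4d at 6.06, the latter below the macrophages. Nod2, the intracellular sensor of muramyl dipeptide, stood at 9.27 and 8.99 in Ly6Chi and Ly6Clo cells and at 6.77 in macrophages, with splenic monocytes at 7.59 and 7.92. Trem3 (4.04) and the nucleic acid sensor gene Zbp1 (1.40) were higher as well. Of the Toll-like receptor genes, Tlr12 (-3.61) and Tlr3 (-1.07) were lower in Ly6Chi cells. Tlr2, which detects bacterial lipoproteins, differed by 0.84, and the endotoxin receptor gene Tlr4 by -0.21, both within 2-fold.

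In the inflammasome and interleukin 1 pathway 6 of 18 genes were higher and 0 lower (median 0.55). Mefv, which encodes the sensor pyrin, stood at 10.79 against 8.31, whereas the inflammasome genes Nlrp3 (0.51), Casp1 (0.04), Pycard (0.12) and Nlrc4 (-0.73) were within 2-fold. Receptors and inhibitors made up most of the others, with the accessory receptor gene Il1rap (2.15), the decoy receptor gene Il1r2 (1.83), the receptor antagonist gene Il1rn (1.19), the interleukin 18 receptor gene Il18rap (1.79) and Irak3, an inhibitor of signalling (1.01). Il1r2 varied among macrophages, from 9.25 in colitis to 11.52 in the reconstituted array, which was above the 11.08 of Ly6Chi cells.

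Genes of the interleukin 10 and TGF-beta axis, through which gut macrophages restrain inflammation, had 3 of 17 higher and 5 lower (median 0.06). Il10 stood at 7.37 in Ly6Chi cells and 10.63 in the macrophages of colitis, 6.46 in Ly6Clo cells, 5.04 and 4.87 in splenic monocytes of colitis and steady state, and between 9.92 and 11.01 in the steady-state CX3CR1hi arrays. It was high in the 4 CX3CR1hi arrays, intermediate in the colonic CX3CR1int arrays and low in the spleen. The receptor subunit genes Il10ra (0.06) and Il10rb (-0.67) were within 2-fold, whereas the TGF-beta receptor genes Tgfbr1 (-2.37) and Tgfbr2 (-1.37) and Itgav, an integrin subunit that releases active TGF-beta (-1.35), were lower. Higher in Ly6Chi cells were Nfil3 (2.12) and Bcl3 (1.31), nuclear regulators induced by interleukin 10 among other signals, and Thbs1, a matrix protein that can activate TGF-beta (13.25 against 11.51).

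**Figure D3:**
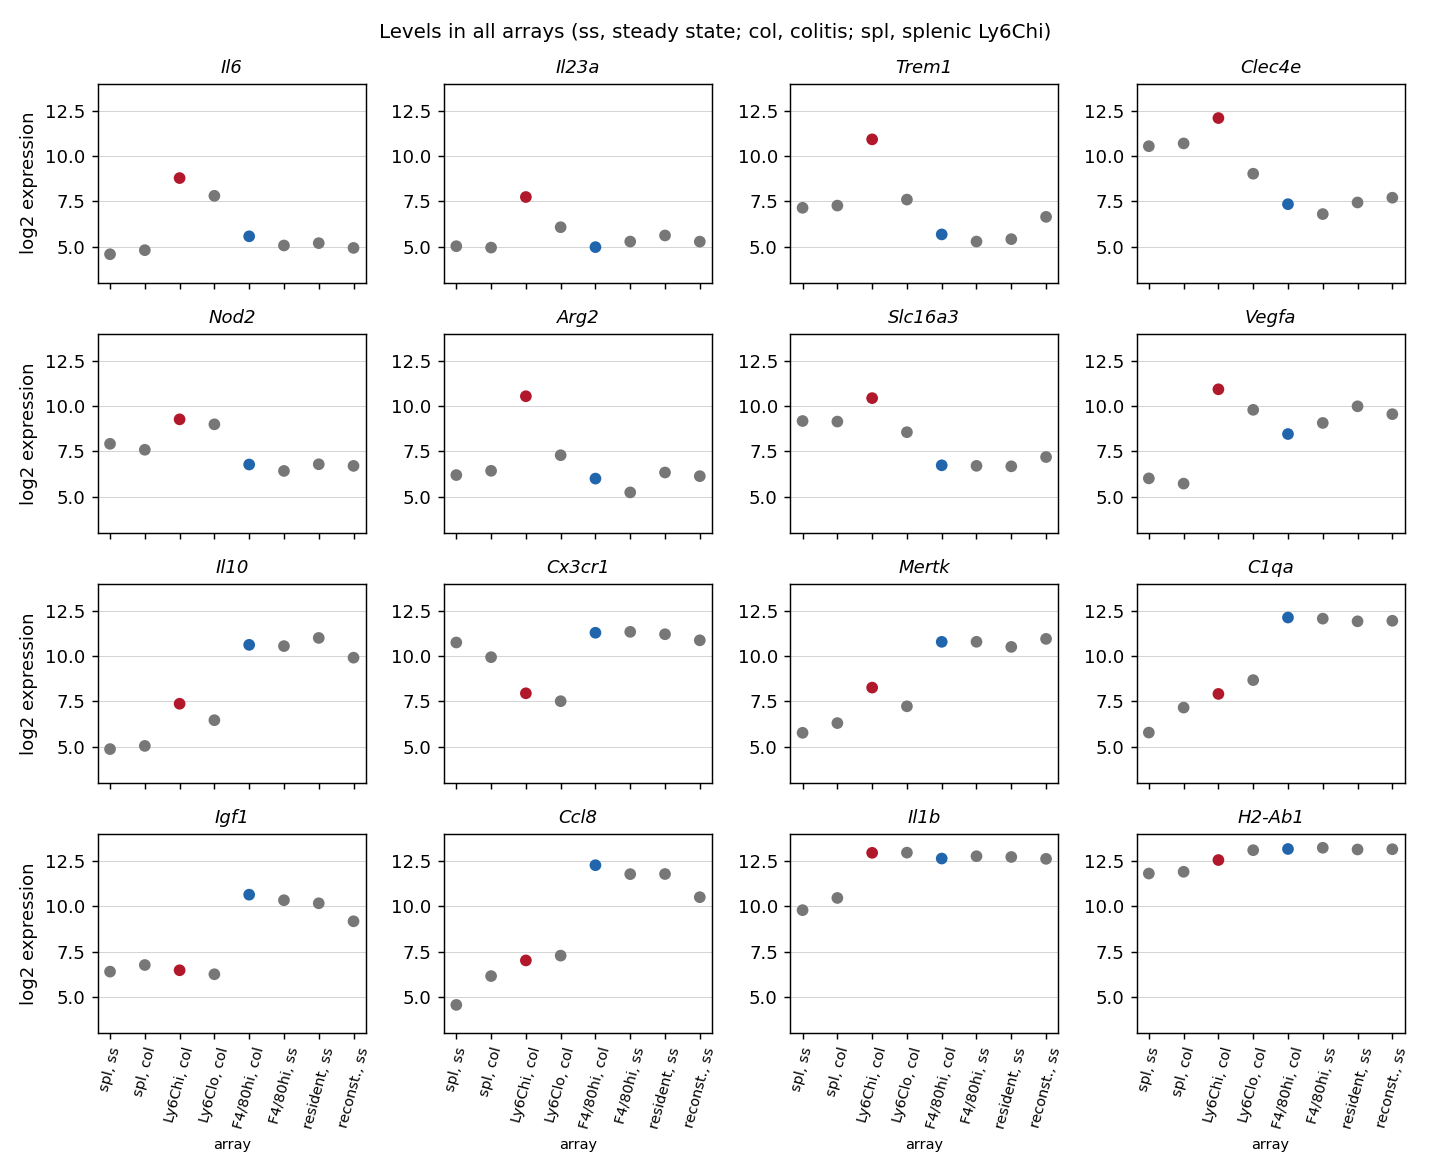
Log2 expression of 16 genes (vertical axes) in each of the 8 arrays (horizontal axes), 1 point an array, with colitis Ly6Chi cells in red and colitis CX3CR1hi F4/80hi macrophages in blue. Trem1 and Arg2 are far higher in the Ly6Chi array than in any other, Il10, C1qa and Igf1 are high in all 4 CX3CR1hi arrays, and Il1b and H2-Ab1 are above 12 in all 6 colonic arrays.

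Many uptake receptors were lower in Ly6Chi cells. Scavenger and haemoglobin receptors had 9 of 17 lower and 2 higher (median -1.25, or -0.51 over all 21 measured). Folr2, the folate receptor beta of tissue macrophages, stood at 4.98 against 9.96, and Stab1, a clearance receptor, at 8.34 against 12.09. Cd163, the receptor for haptoglobin bound to haemoglobin, stood at 5.12 in Ly6Chi cells and 9.14 in the macrophages of colitis, 5.60 in Ly6Clo cells, 5.28 and 5.03 in splenic monocytes of colitis and steady state, and between 5.99 and 8.22 in the steady-state CX3CR1hi arrays. Its value differed widely among macrophages. Cd209f, lower by a like amount (-3.80), ranged from 4.93 to 8.48 among the steady-state CX3CR1hi arrays. Cd36, a receptor for oxidised lipid (-3.65), Mgl2 (-2.35), the hyaluronan receptor gene Lyve1 (-2.21) and the mannose receptor gene Mrc1 (-1.81) were lower too. The lectin genes Cd209a (3.51) and Cd209d (3.18) were higher in Ly6Chi cells. Among genes for the clearance of dying cells 9 of 20 were lower and 1 higher (median -0.80, or -0.41 over all 24 measured). Gas6 encodes the ligand that bridges dying cells to Mertk and Axl, and stood at 7.55 in Ly6Chi cells and 10.68 in the macrophages of colitis, 8.15 in Ly6Clo cells, 5.18 and 4.87 in splenic monocytes of colitis and steady state, and between 10.23 and 10.66 in the steady-state CX3CR1hi arrays. Axl (-2.44) and the phosphatidylserine receptor gene Timd4 (-1.69) were lower with Mertk (-2.53). The member that was higher, Cd300lf (2.92), encodes an inhibitory phosphatidylserine receptor.

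Complement genes were lower in 9 of 18 cases and higher in 1 (median -1.05). C1qa, a subunit of the initiator C1q, stood at 7.92 in Ly6Chi cells and 12.14 in the macrophages of colitis, 8.68 in Ly6Clo cells, 7.16 and 5.78 in splenic monocytes of colitis and steady state, and between 11.93 and 12.07 in the steady-state CX3CR1hi arrays. C1qc (-3.49) and C1qb (-2.08) were lower with it, as were C4b (-2.27), C2 (-1.21) and the complement receptor gene Vsig4 (-2.11). C4b stood at 8.82 in colitis macrophages but at 6.52 in the reconstituted array, so that against the latter the difference was 0.02. Cfb, the protease of the alternative pathway, was higher (1.05). Of 6 Fc receptor genes included, 1, Fcrls, was lower and 0 were higher, a number too small to set against the background of 9.07% and 5.33%. Fcgr3 differed by -0.35, Fcgr2b by -0.19 and Fcgr4 by -0.97.

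Of 14 MHC class II presentation genes, 0 were 2-fold apart, against 14.4% of all included genes (median -0.19). In a list this short that share would be about 2 genes, so the count alone does not set the list apart. H2-Ab1 stood at 12.55 in Ly6Chi cells and 13.16 in the macrophages of colitis, 13.10 in Ly6Clo cells, 11.90 and 11.81 in splenic monocytes of colitis and steady state, and between 13.14 and 13.23 in the steady-state CX3CR1hi arrays. H2-Eb1 (-0.89), H2-Aa (-0.57), the invariant chain gene Cd74 (-0.55) and their activator Ciita (-0.22) all lay within 2-fold, with the macrophages slightly above. Costimulation genes had 2 of 16 higher and 1 lower (median 0.01, or 0.03 over all 19 measured), against 5.33% and 9.07% of all included genes. That list is too short to tell its counts from this background. Cd86 (-0.03), Cd80 (0.76), Cd40 (0.65) and the checkpoint ligand gene Cd274 (0.35) were within 2-fold. Btla, an inhibitory receptor (2.85), and Tnfsf9, the ligand of 4-1BB (2.26), were higher, and the B cell survival factor gene Tnfsf13b was lower (-2.66). In the wider TNF superfamily 3 of 14 were higher and 4 lower (median 0.59, or 0.30 over all 21 measured), and Tnfsf14, which encodes the ligand LIGHT, stood at 8.73 in Ly6Chi cells, 5.46 in Ly6Clo cells and 5.27 in macrophages. The death receptor gene Fas was higher as well (1.97).

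Type I interferon response genes, which cells switch on against viruses, were higher in Ly6Chi cells in 13 of 22 cases and lower in 1 (median 1.06). Oas3, which makes the activator of RNase L, stood at 9.31 in Ly6Chi cells and 6.08 in the macrophages of colitis, 8.12 in Ly6Clo cells, 9.88 and 10.07 in splenic monocytes of colitis and steady state, and between 5.95 and 6.03 in the steady-state CX3CR1hi arrays. Splenic monocytes were thus at least as high as colonic Ly6Chi cells, and no CX3CR1hi array exceeded 6.08. Ifi205 (2.27), the regulator gene Irf7 (1.82), Mx1 (1.60), Usp18, a brake on the receptor (1.50), Slfn5 (1.37) and Isg20 (1.37) followed. The gene that was lower was Ddx60, an RNA helicase (7.14 against 8.25). Of 12 genes that respond mainly to interferon gamma 2 were higher and 2 lower (median 0.25), against 5.33% and 9.07% of all included genes. A list of 12 genes is too short to set these counts against that background. The guanylate-binding protein genes Gbp5 (1.20) and Gbp9 (1.01) were higher, Gbp8 was lower (-1.53), and the receptor genes Ifngr1 (0.58) and Ifngr2 (-0.05) were within 2-fold. Iigp1, an interferon-induced GTPase, was lower (-1.40), but against the steady-state F4/80hi array (7.89) and the reconstituted array (6.71) Ly6Chi cells had the higher value.

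The promoters of these genes were searched for the core of the interferon-stimulated response element (GAAA, any 2 bases, GAAA, on either strand) in RefSeq windows (build GRCm38.p6) from 250 bases before to 50 bases after a transcript's start. A match lay in 10 of the 17 included interferon response genes with a window, against 3.99% of 27025 genes with a window and 3.44% of 32851 windows. The list was made of known interferon response genes, so its share of matches says nothing of the difference between the arrays. Among all genes at least 2-fold higher in Ly6Chi cells the share was 8.04%, among those lower 4.22%, and among all included genes 4.07%. Of the interferon response genes with a match, Oas3 was the farthest higher in Ly6Chi cells and Ddx60 the farthest lower, and for that reason both windows are shown, with matches in capitals. Oas3 lies on the minus strand at chr5:120777610-120777909 and has 1 match, whose leftmost base is 75 bases before the start. Ddx60 lies on the plus strand at chr8:61927837-61928136 and has 2 matches, beginning 53 and 19 bases before the start.
Oas3: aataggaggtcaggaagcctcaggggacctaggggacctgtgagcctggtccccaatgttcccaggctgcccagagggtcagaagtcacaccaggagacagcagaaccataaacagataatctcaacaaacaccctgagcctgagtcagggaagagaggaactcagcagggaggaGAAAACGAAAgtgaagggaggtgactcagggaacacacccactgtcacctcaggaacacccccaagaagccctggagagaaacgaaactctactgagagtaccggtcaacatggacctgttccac
Ddx60: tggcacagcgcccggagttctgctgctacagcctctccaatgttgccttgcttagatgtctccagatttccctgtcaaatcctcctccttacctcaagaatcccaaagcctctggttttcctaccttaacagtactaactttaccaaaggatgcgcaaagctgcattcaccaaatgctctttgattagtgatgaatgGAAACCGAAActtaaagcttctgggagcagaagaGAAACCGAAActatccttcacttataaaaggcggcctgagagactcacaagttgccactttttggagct

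NF-kB subunits and their feedback inhibitors, the core of the inflammatory response to bacterial products, had 4 of 18 higher and 0 lower (median 0.33). The higher ones were Traf1 (1.84), Bcl3 (1.31), Tnip1 (1.20) and Tnip3 (1.07), none of which is a subunit. The subunit genes Nfkb2 (0.78) and Relb (0.97) and the inhibitor genes Nfkbie (0.56) and Tnfaip3 (-0.42) were within 2-fold. A site of the form GGGANTTCC, on either strand, lay in the windows of 8 of 16 of these genes, against 1.92% of all genes with a window and 1.68% of windows. Here too the share within the list says nothing of the difference between the arrays. Genes at least 2-fold higher in Ly6Chi cells held the site in 1.89% of cases, those lower in 1.5% and all included genes in 2.79%. Of the list's genes with a match, Bcl3 and Tnfaip3 were those farthest to either side, and their windows are shown with the match in capitals. Bcl3 is on the minus strand at chr7:19822706-19823005, with a match that begins 3 bases after the start. Tnfaip3 is on the minus strand at chr10:19015361-19015660, with a match that begins 12 bases before the start.
Bcl3: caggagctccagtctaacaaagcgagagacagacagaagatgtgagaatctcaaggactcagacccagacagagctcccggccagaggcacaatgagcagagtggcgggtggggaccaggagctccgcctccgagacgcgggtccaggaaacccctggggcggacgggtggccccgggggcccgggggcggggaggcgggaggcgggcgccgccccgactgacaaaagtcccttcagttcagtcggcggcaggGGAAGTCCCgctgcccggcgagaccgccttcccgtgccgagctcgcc
Tnfaip3: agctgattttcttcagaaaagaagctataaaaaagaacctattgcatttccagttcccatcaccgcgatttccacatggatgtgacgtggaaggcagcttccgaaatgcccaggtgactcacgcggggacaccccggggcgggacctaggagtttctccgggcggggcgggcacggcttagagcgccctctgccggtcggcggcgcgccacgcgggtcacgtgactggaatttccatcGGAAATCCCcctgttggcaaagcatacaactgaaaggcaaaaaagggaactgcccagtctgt

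These motifs were picked from 15 patterns after the matches of all 15 had been seen. Over the 12 not described, the share among genes higher in Ly6Chi cells was 0.877 to 2.65 times that among included genes, and among lower genes 0.854 to 1.39 times. The highest of these was a longer form of the interferon element, a rare one. It was held by only 1.18% of higher, 0.409% of lower and 0.446% of included genes, so its ratio rests on few promoters. The pattern of PU.1 was held by 8.04% of higher, 4.77% of lower and 4.08% of included genes. A motif of the AP-1 factors Fos and Jun, TGANTCA, which reads into the opposite strand as itself, was held by 13.9% of genes at least 2-fold higher in Ly6Chi cells and 11.6% of those lower. The share was 6.52% among all included genes with a window, 8.97% among all genes and 7.81% among all windows. Immediate early and heat shock genes themselves, which respond within minutes to stimulation or to handling, had no match in 20 genes with a window. Of 24 such genes 6 were lower in Ly6Chi cells and 1 higher (median -0.48). The chaperone genes Dnajb1 (-1.84) and Hsph1 (-1.67), Fosb (-1.68), Klf2 (-1.58), Egr1 (-1.21) and Jun (-1.08) were lower, and Fosl2 was higher (1.59). Hsph1 stood at 11.59 in colitis macrophages but at 9.70 and 9.89 in the resident and reconstituted arrays, both below the 9.92 of Ly6Chi cells. Whether tissue digestion and sorting acted differently on the populations was not tested.

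Hypoxia and glycolysis genes were higher in Ly6Chi cells in 14 of 24 cases and lower in 0 (median 1.10). Slc16a3, which encodes the lactate exporter MCT4, stood at 10.44 in Ly6Chi cells and 6.73 in the macrophages of colitis, 8.56 in Ly6Clo cells, 9.15 and 9.18 in splenic monocytes of colitis and steady state, and between 6.67 and 7.19 in the steady-state CX3CR1hi arrays. Vegfa, the vascular endothelial growth factor gene, stood at 10.93 in Ly6Chi cells and 8.46 in the macrophages of colitis, 9.79 in Ly6Clo cells, 5.72 and 6.01 in splenic monocytes of colitis and steady state, and between 9.07 and 9.99 in the steady-state CX3CR1hi arrays. For Vegfa the colonic Ly6Chi array was far above splenic monocytes, whereas for Slc16a3 splenic monocytes were already high. The oxygen sensor gene Egln3 (2.31), the oxidoreductase gene Ero1a (2.13), the glucose transporter gene Slc2a1 (1.86), the glycolytic enzyme gene Pfkp (1.64) and Hif1a itself (1.40) were higher, as was Bnip3 (1.54). Of 23 respiratory chain genes 1 was 2-fold apart, against 14.4% of all included genes (median -0.11). That gene, Ppargc1a (-1.13), encodes a regulator of mitochondrial biogenesis and is no subunit.

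Coagulation and fibrinolysis genes were higher in 10 of 19 cases and lower in 4 (median 1.05). F10, which encodes coagulation factor X, stood at 10.92 in Ly6Chi cells and 5.57 in the macrophages of colitis, 6.77 in Ly6Clo cells, 10.43 and 10.36 in splenic monocytes of colitis and steady state, and between 5.34 and 6.07 in the steady-state CX3CR1hi arrays. F5, which encodes its cofactor, followed the same order at 8.51, 4.86 and 4.49 in Ly6Chi, Ly6Clo and CX3CR1hi cells of colitis, with splenic monocytes at 8.95 and 8.69. Both genes were therefore high in every Ly6Chi array and low in the others. The fibrinolysis inhibitor gene Serpinb2 (3.18) and Thbd, which encodes the anticoagulant receptor thrombomodulin (1.93), were higher, whereas the plasminogen activator gene Plau (7.33 against 10.60) and the tissue factor inhibitor gene Tfpi (-2.06) were lower. Proteases and matrix genes split evenly, with 8 of 23 higher and 8 lower (median 0.19, or 0.10 over all 25 measured). Mmp13, a collagenase, stood at 6.45 in Ly6Chi cells and 11.49 in the macrophages of colitis, 6.22 in Ly6Clo cells, 5.87 and 4.80 in splenic monocytes of colitis and steady state, and between 11.57 and 11.92 in the steady-state CX3CR1hi arrays. Mmp12, the macrophage elastase (-3.13), Adam19 (-2.95), Timp2 (-2.47) and Mmp2 (-2.37) were lower with it. In place of these, Ly6Chi cells had Mmp8 (4.94), the membrane protease gene Adam8 (3.72) and the protease inhibitor gene Timp1 (3.33). Timp1 stood at 8.37 in Ly6Chi cells, 6.48 in Ly6Clo cells and 5.04 or less in the other 6 arrays.

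Genes for the granule proteins of neutrophils and monocytes had 6 of 12 included members higher and 2 lower (median 1.58, or 0.79 over all 21 measured). The higher ones included Chil1, Chil3, Mmp8 and S100a4, given above, and the resistin-like gene Retnlg (2.19). The calgranulin genes S100a8 (5.34 against 5.00) and S100a9 (5.17 against 5.24), among the most abundant transcripts of neutrophils, were too dim for inclusion in both arrays, as were Camp, Ngp, Ltf, Elane and Mpo. Mmp9 was lower (-1.36).

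Genes for lipid and cholesterol handling were lower in 10 of 20 cases and higher in 0 (median -1.09). Gpnmb, a glycoprotein of lipid-laden macrophages, stood at 7.08 against 10.88, with 6.35 in Ly6Clo cells, 5.75 and 5.66 in splenic monocytes of colitis and steady state, and between 9.13 and 10.82 in the steady-state CX3CR1hi arrays. Apoe, the lipid carrier of macrophages (-1.41), the phospholipid transfer protein gene Pltp (-2.29), Ch25h, which makes an oxysterol (-2.25), the lysosomal lipase gene Lipa (-1.26) and the nuclear receptor gene Pparg (-1.33) were lower, whereas the cholesterol exporter gene Abca1 (-0.96) was just inside 2-fold. Prostaglandin and leukotriene genes went both ways, 3 of 15 higher and 6 lower (median -0.37, or -0.02 over all 18 measured). The leukotriene enzyme genes Ltc4s (-2.96) and Alox5 (-2.69) and the thromboxane synthase gene Tbxas1 (-1.47) were lower with Hpgds, and Alox5ap, the helper of 5-lipoxygenase (2.01), was higher. The enzyme and its helper thus stood on opposite sides.

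Haem and iron genes were lower in 7 of 17 cases and higher in 2 (median -0.60). Slc40a1, the iron exporter ferroportin (-2.61), Cp, the ferroxidase ceruloplasmin that works with it (-3.72), and Spic, a transcription factor of iron-recycling macrophages (-2.25), were lower. The higher ones were Hp and Lcn2, whose products bind haemoglobin and bacterial iron carriers. Between these arrays, haptoglobin RNA was thus high where the RNA of its receptor Cd163 was low, whereas Ly6Clo cells were low in both. Lysosomal genes had 6 of 29 lower and 1 higher (median -0.52), against 9.07% and 5.33% of all included genes. Acp5 (-2.23), the cathepsin genes Ctsf (-2.13) and Ctsd (-1.09) and Tpp1 (-1.28) were lower and Ctse was higher (1.76).

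Growth factor genes for tissue repair were lower in 7 of 14 included cases and higher in 3 (median -0.91, or -0.13 over all 23 measured). Igf1, insulin-like growth factor 1, stood at 6.46 in Ly6Chi cells and 10.64 in the macrophages of colitis, 6.24 in Ly6Clo cells, 6.75 and 6.39 in splenic monocytes of colitis and steady state, and between 9.17 and 10.33 in the steady-state CX3CR1hi arrays. Pdgfc stood at 4.99 against 9.51, with 5.49 in Ly6Clo cells, 5.02 and 4.99 in splenic monocytes of colitis and steady state, and between 8.26 and 8.65 in the steady-state CX3CR1hi arrays. Pdgfb (-3.17), Pdgfa (-1.94), Bmp2 (-1.89) and Hbegf (-1.08) were lower. Besides Vegfa, the higher ones were ligands of the epidermal growth factor receptor family, Nrg1 (2.46) and Ereg (1.56). Ion channel genes were lower in 6 of 14 cases and higher in 0 (median -0.92), among them Kcnk13, a potassium channel that sets the resting potential (-2.11), the proton channel gene Hvcn1 (-1.78) and P2rx7, the receptor for extracellular ATP (-1.40).

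Lineage transcription factor genes had 7 of 35 higher and 9 lower (median -0.15). Lower in Ly6Chi cells were Maf, which maintains interleukin 10 and C1q expression in macrophages (-2.69), Bhlhe41 (-2.81), Spic (-2.25), Cebpa (-1.61) and Klf2 (-1.58). Higher were Stat4, which carries the interleukin 12 signal (2.17), the orphan nuclear receptor gene Nr4a2 (1.70), Cebpb (1.67), Id3 (1.59) and the retinoic acid receptor gene Rara (1.48). Cebpb stood at 10.93 in Ly6Chi cells, 9.26 in macrophages and 8.16 in Ly6Clo cells. Spi1, which encodes the master regulator PU.1, differed by 0.25 and Irf8 by -0.30. Among integrins and adhesion genes 6 of 25 were higher and 8 lower (median 0.29). Itgb7, a subunit of the gut-homing integrin, stood at 9.09 in Ly6Chi cells and 5.28 in the macrophages of colitis, 9.08 in Ly6Clo cells, 9.61 and 9.61 in splenic monocytes of colitis and steady state, and between 4.89 and 5.33 in the steady-state CX3CR1hi arrays. It was high in all monocyte and CX3CR1int arrays and low in all macrophage arrays. Itga1 (2.52), Emb (2.12), Itga5 (1.40) and Itgal (1.31) were higher, and Itga9 (-3.59) and Itga6 (-1.73) lower. Colony-stimulating factor genes had 2 of 10 higher and 0 lower (median 0.43, or 0.26 over all 13 measured), namely Csf2rb, the receptor subunit shared by GM-CSF (1.05), and Flt3, the growth factor receptor of dendritic cell progenitors. Flt3 stood at 9.03 in Ly6Chi cells, 11.16 in Ly6Clo cells and 5.14 in macrophages. A list of 10 genes is too short to set its counts against the 5.33% and 9.07% of all included genes.

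Cell cycle genes were within 2-fold in 27 of 29 cases and lower in 2, Cdk1 (-1.04) and Cenpe (-1.02), with a median of -0.50. The share that was lower is near the 9.07% of all included genes. Their median level was 6.71 in Ly6Chi cells, 7.38 in colitis macrophages and 8.88 in Ly6Clo cells. Of 17 ribosomal protein genes 0 were 2-fold apart, against 14.4% of all included genes (median 0.19).

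**Figure D4:**
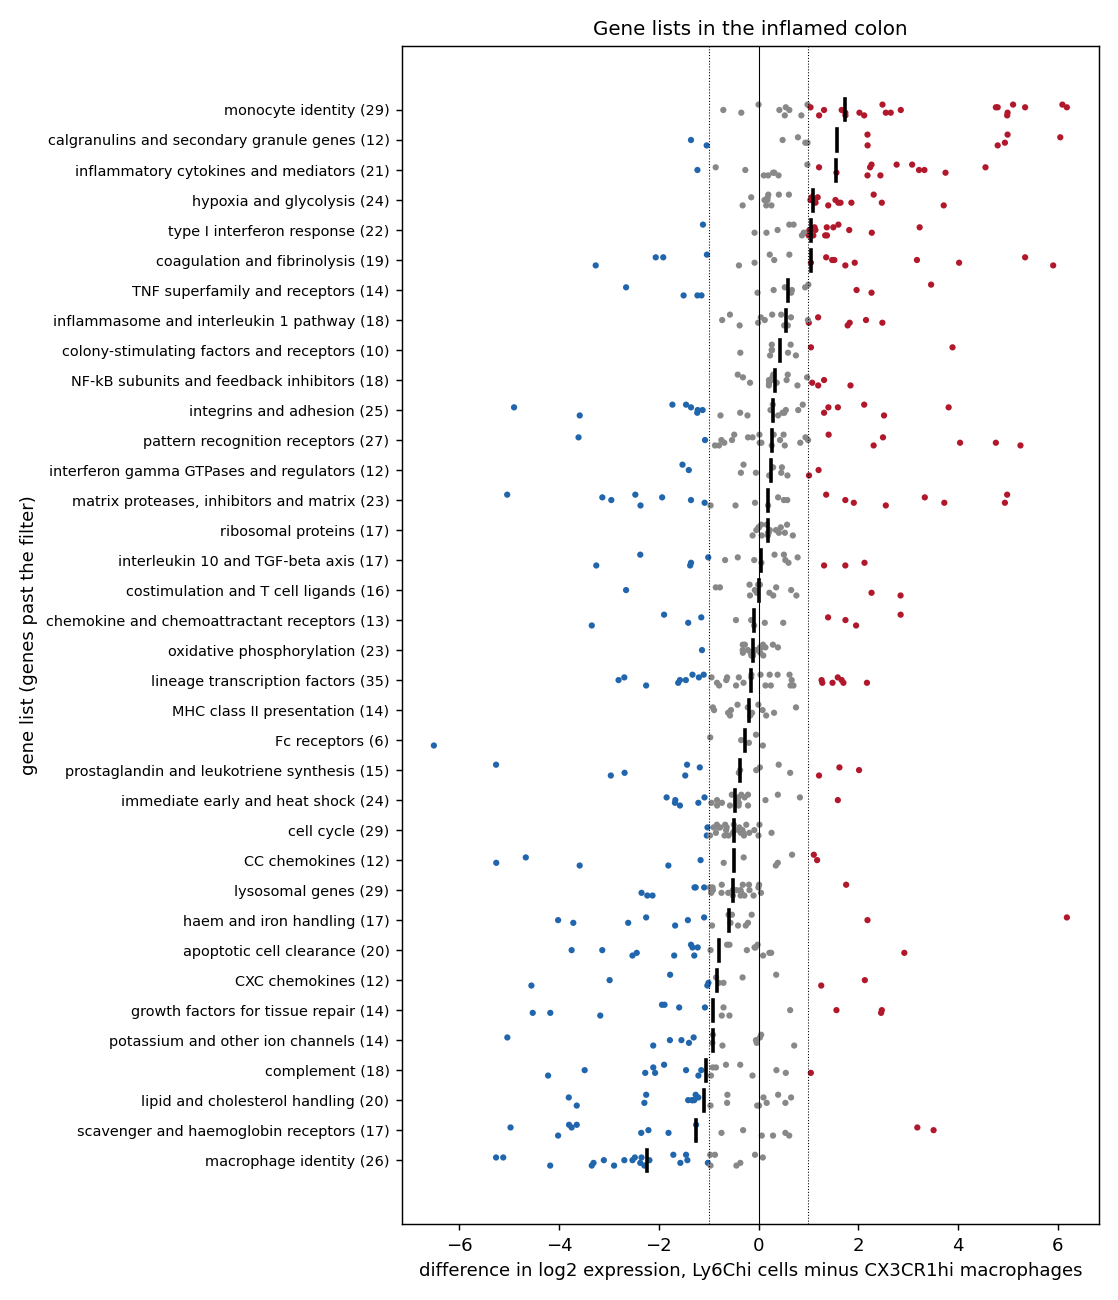
Difference in log2 expression, Ly6Chi cells minus CX3CR1hi F4/80hi macrophages of the inflamed colon (horizontal axis), for the included genes of 36 function lists (vertical axis, number of genes in parentheses), 1 point a gene; bars are medians, and red and blue points are at least 2-fold higher or lower. Monocyte identity genes have the highest median (1.74) and macrophage identity genes the lowest (-2.24), while MHC class II and ribosomal protein genes lie within 2-fold throughout.

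Genes that sit side by side on a chromosome did not always share a direction. These groups were chosen after their values were seen. In the Trem locus, 4 of 5 included genes were higher in Ly6Chi cells, Trem1 (5.25), Trem3 (4.04), Treml2 (3.38) and Treml4 (2.10), whereas Trem2, a lipid receptor of tissue macrophages, was lower (-1.29). In the Cd209 lectin locus 4 of 5 were higher, Cd209a, Cd209d, Cd209c (2.08) and Cd209e (1.28), and Cd209f was lower. In the Mincle locus Clec4e and Clec4d were higher, while their neighbours Clec4n (-0.75), Clec4a2 (-0.49), Clec4a1 (-0.12) and Clec4a3 (0.26) were within 2-fold. All 3 C1q genes were lower. Schlafen genes, growth regulators of immune cells, were higher in 5 of 7 cases, with Slfn4 at 3.90 and Slfn1 at 3.78, and in the Ms4a locus Ms4a4c (2.65) and Ms4a4b (2.10) were higher and Ms4a7 (-4.33) lower. Probes of near-identical neighbours can pick up each other's RNA.

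RNA of other cells differed between the arrays as well. Of 21 epithelial markers 10 were at least 2-fold lower in Ly6Chi cells, with a median of -0.97, and all 21 had the lower value there. Their median level was 9.85 in Ly6Chi cells, 9.29 in Ly6Clo cells, 10.99 in colitis macrophages, 10.57, 11.23 and 10.76 in the steady-state F4/80hi, resident and reconstituted arrays, and 5.49 and 5.02 in the spleen. Summed on the linear scale and returned to log2, the 21 markers reached 14.99 in Ly6Chi cells and 15.83 in colitis macrophages. All colonic arrays thus held epithelial RNA, Muc2 for example at 11.68 and 12.83, and its part in the genes that were lower in Ly6Chi cells was not tested. Stromal markers were all within 2-fold (median -0.35). Markers of plasma and B cells were higher in 4 of 10 cases (median 0.73), with Mzb1 at 7.65 against 5.23. Antibody genes were bright in both arrays. Jchain stood at 12.46 against 11.90 and Igha at 12.21 against 11.65, both within 2-fold, and Ighm at 11.36 against 10.03. The log2 of the list's sum was 14.09 in Ly6Chi cells and 13.41 in colitis macrophages. The T cell receptor complex genes Cd3d, Cd3e and Cd3g did not reach the brightness cut. Cd3e, at 5.86 against 4.98, missed it narrowly, since the Ly6Chi array's median was 5.8645. Of 3 included T and NK cell markers, Gzmb (1.64) and Nkg7 (1.46) were higher and Il7r (-1.04) lower (median 1.46, or 0.26 over all 14 measured).

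Neutrophil markers passed the brightness filter in 7 of 15 cases, and 4 were higher in Ly6Chi cells, Mmp8, Hdc, Retnlg and Cd177 (1.68), while Mmp9 was lower (median 1.68, or 0.19 over all 15 measured). The neutrophil chemokine receptor gene Cxcr2 was dim, at 5.28 against 4.85, and Ly6g differed by -0.43. Over all 15 markers the median level was 5.34 in Ly6Chi cells, 5.00 in macrophages and 5.61 in splenic monocytes of colitis, and the log2 of their sum was 12.02, 10.79 and 12.47. Conventional dendritic cell markers were higher in 6 of 14 cases and lower in 1 (median 0.77). Besides Flt3, Cd209a and Ccr7, these were the serotonin receptor gene Htr7 (3.25), Kmo, an enzyme of tryptophan breakdown (1.69), and Dpp4 (1.26). The list's median level was 8.69 in Ly6Chi cells, 11.13 in Ly6Clo cells, 7.21 in macrophages and 7.86 in splenic monocytes of colitis, and the log2 of its sum was 13.54, 14.96, 13.06 and 12.79. The defining gene Zbtb46 was dim, at 4.67 against 4.41, and stood at 6.86 in Ly6Clo cells. What part dendritic, plasma, B, T, NK or neutrophil RNA had in the values of Ly6Chi cells was not tested.

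Markers of patrolling monocytes were higher in 3 of 10 cases (median 0.46), led by Ace (2.26) and Treml4. That list is too short to set its count against the 5.33% of all included genes. Red pulp macrophage markers, several of which colonic macrophages also express, were lower in 5 of 6 cases (median -2.43). Of 12 pancreatic acinar genes 1 was higher, near the 5.33% of all included genes (median 0.32). Their median level was highest in the steady-state resident array, at 8.45, followed by 7.58 in Ly6Chi cells and 7.48 in colitis macrophages. It was 5.84 in the reconstituted array, 5.54 in the steady-state F4/80hi array, 5.02 in Ly6Clo cells and 5.16 and 5.21 in splenic monocytes of colitis and steady state. Endothelial markers had 1 higher and 1 lower of 7 (median 0.48), plasmacytoid dendritic cell markers 1 and 1 of 5, and eosinophil and mast cell markers 1 and 0 of 2. These lists are too short to set their counts against the 5.33% and 9.07% of all included genes. Of the 3 erythroid genes measured, 1 was included and lower, and of 7 enteric glial and neuronal genes 0 reached the brightness filter.

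**Figure D5:**
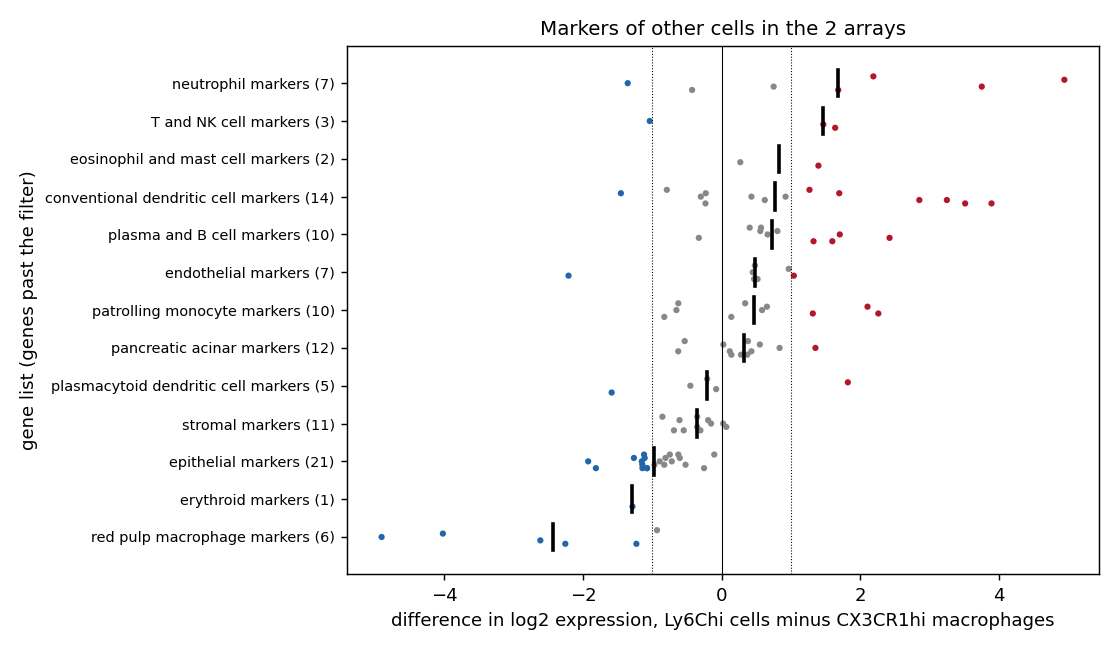
Difference in log2 expression, Ly6Chi cells minus CX3CR1hi F4/80hi macrophages of the inflamed colon (horizontal axis), for included markers of other cells (vertical axis, number of genes in parentheses), 1 point a gene; bars are medians, and red and blue points are at least 2-fold higher or lower. All 21 epithelial markers lie below 0 and 6 of 14 dendritic cell markers are at least 2-fold higher in Ly6Chi cells.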

How the data were processed

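Log2 expression values of 35399 probe sets on 8 arrays were used as deposited by the authors, who made them with RMA and Partek, per the submitters' processing notes; versions, settings and genome build are not given in the sources used here. Array medians lay between 5.77 and 5.87. Probe sets were named from the platform annotation, and a match of Entrez IDs to RefSeq changed 0 symbols. Of the probe sets, 21789 had 1 symbol, 1621 several and 11989 were not listed, and only the first were used, giving 19938 genes. For the 999 genes with several probe sets, the one with the highest mean over the 8 arrays was taken. A gene was included where the brighter of the 2 arrays reached that array's median, and the values were subtracted (Python 3.11.15, pandas 2.3.3, numpy 2.4.6). There are no replicates, so no test, error or p-value is given.

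The comparison, the 50 gene lists and the rule for naming genes were chosen with earlier results of these data known. The rule took the 20 genes at each end, leaving out predicted genes, olfactory and vomeronasal receptors, small RNAs, histones and antigen receptor segments, up to 8 members of each list by size of difference, and genes of the sort and of cytokines. Other list members named, the neighbouring genes, motifs, promoters and genes plotted were chosen after their values were seen. Alternatives were the filter, the probe set rule, the scaling, the fold and the array on either side.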

Additional observations from a re-analysis of the deposited data

How the results depend on the processing

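No paired analysis was possible because each group had 1 array, and for the same reason no array of a group could be left out. Centring arrays on their medians (558 higher and 921 lower), repeating quantile normalization (550 and 927), averaging a gene's probe sets (546 and 925) and dropping the brightness filter (558 and 939) kept the counts close to 549 and 935. With the brighter array at or above its 75th percentile they were 399 and 546, at 4-fold 164 and 188. With another macrophage array they were 745 and 794 (steady-state F4/80hi, so that 48.4% of 2-fold differences were higher, against 37.0%), 682 and 1521 (resident) and 714 and 1243 (reconstituted), and with Ly6Clo in place of Ly6Chi cells 756 and 1227. Of the 549 and 935 genes, 501 and 639, 468 and 762, 447 and 702, and 250 and 647 were still at least 2-fold apart in the same direction in these 4, and 0 and 0, 0 and 0, 0 and 3, and 19 and 9 were at least 2-fold apart in the opposite direction.

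Each list median that crossed a difference of 1 in size follows, a rule set after a narrower one had been run and its output seen. By the SD of 0.316 over genes between the F4/80hi arrays, 99 of 420 list medians moved, 35 of them with Ly6Clo cells and 0 under either scaling or with averaged probe sets. Without the filter they were inflammatory mediators 0.66, scavenger receptors -0.51, complement -0.95, granule genes 0.79, T and NK cell markers 0.26 and neutrophil markers 0.19. At the 75th percentile they were CC chemokines -1.16, CXC chemokines -1.02, scavenger receptors -0.74, apoptotic cell clearance -1.22, haem and iron handling -1.01, repair factors -1.48 and dendritic cell markers 1.69. Against the steady-state F4/80hi array they were scavenger receptors -0.70, complement -0.84, lipid handling -0.82, hypoxia and glycolysis 0.84, plasma and B cell markers 1.28, dendritic cell markers 1.21 and pancreatic acinar markers 2.42. Against the resident array they were scavenger receptors -0.96, complement -0.66, coagulation and fibrinolysis 0.90, lipid handling -0.96, hypoxia and glycolysis 0.64, epithelial markers -1.67, plasma and B cell markers 1.36 and dendritic cell markers 1.02. Against the reconstituted array they were scavenger receptors -0.51, apoptotic cell clearance -1.14, complement -0.35, lipid handling -0.92, hypoxia and glycolysis 0.67, epithelial markers -1.31, stromal markers 1.10, plasma and B cell markers 1.62 and pancreatic acinar markers 2.23. With Ly6Clo in place of Ly6Chi cells they were monocyte identity 0.0512, inflammatory mediators -0.24, CC chemokines -1.10, CXC chemokines -1.19, pattern recognition receptors -1.02, apoptotic cell clearance -1.34, type I interferon response 0.38, Fc receptors -1.70, granule genes 0.38, coagulation and fibrinolysis -0.13, haem and iron handling -1.48, lysosomal genes -1.08, hypoxia and glycolysis 0.35, cell cycle 1.38, repair factors -1.64, epithelial markers -1.39, stromal markers -1.19, neutrophil markers -0.99, dendritic cell markers 2.78 and pancreatic acinar markers -2.23.

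Genes named by the rule, at least 2-fold apart, that changed sign were Iigp1 0.31 against the steady-state F4/80hi array, Hsph1 0.22 against the resident array, Il1r2 -0.44, C4b 0.0225, Iigp1 1.49, Hsph1 0.0256 and Il7r 0.45 against the reconstituted array, and with Ly6Clo cells Apol7c 0.59, Vcan -0.66, Saa3 -0.72, Tnfaip6 -0.35, Ccl9 -0.61, Clec4d -1.45, Tlr3 0.097, Irak3 -1.13, Mgl2 0.22, Timd4 0.59, Itgax 0.44, Retnlg -0.64, Ctse -0.41, Bnip3 -0.13, Cdk1 0.95, Cenpe 1.36, Cebpb -1.10, Id3 -0.46, Ighm -0.41, Il7r 0.87, Cd177 -1.34, Ace -0.49, Treml4 -0.35, Itgal -0.51 and Pnliprp1 -1.55. The cause was not tested. Precision is limited by 1 array a group, and genes dim in both arrays were not compared.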
